A study of Mus musculus with 7 samples.

Results

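The genes described here make, sense and break down prostaglandins, lipid messengers made from arachidonic acid. They were chosen by name, as the rows of the expression table whose symbol was Ptgs1, Ptgs2, Ptges, Ptges3, Ptgis, Ptgds, Ptger2, Ptger4, Ptgir or Hpgd. Of these 10 genes, 9 were found among the 21176 genes of the table, and Ptgis was not analysed here. RNA was sequenced from follicular dendritic cells (FDCs), stromal cells that display antigen to B cells in the follicle, taken by FACS from the popliteal nodes. The 4 wild-type (WT) and 3 Ngfr KO samples, the latter from mice lacking the neurotrophin receptor gene Ngfr, came from non-immunized male mice of 8 to 12 weeks, and each sample was a pool of nodes from several animals. The strain, the Ngfr allele and the gate used to sort the cells are not given in the sources used here. The comparison asks which of these transcripts differ between FDCs of the 2 genotypes.

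Prostaglandin synthesis starts when a phospholipase frees arachidonic acid from membranes. The cyclooxygenases, encoded by Ptgs1 (COX-1, usually constitutive) and Ptgs2 (COX-2, usually induced), turn it into the common precursor prostaglandin H, and a terminal synthase then sets which prostaglandin is made. Prostaglandin E2 acts on the receptors EP2 and EP4 and prostacyclin on the receptor IP, all of which raise cyclic AMP in the receiving cell, while 15-hydroxyprostaglandin dehydrogenase (Hpgd) inactivates prostaglandins. Vascular endothelium is a known source of prostacyclin, and prostaglandins act on lymphocytes and on stromal cells of lymphoid tissue.

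The libraries held 17244925 to 18873542 reads in WT and 20741770 to 21538400 in Ngfr KO, so that depth and genotype ran together. A normalised value of 1 stood for 230 to 295 reads, and values carry no correction for gene length. Ngfr itself had values of 0.377, 0.677, 1.30 and 1.14 in WT replicates 1 to 4 and 0.305, 0.353 and 0.184 in Ngfr KO replicates 1 to 3. It reached 1 in 2 samples, too few for the filter on low values, and was added to the limma test by name. That fit gave a log2 change of -0.52 (SE 0.18, adjusted p = 0.0431). The edgeR log2 change was -1.55 (SE 0.49, adjusted p = 0.0574). With 1 sample left out, limma called Ngfr lower without WT replicate 1 and in none of the other fits. Reads of the targeted gene remained in all 3 Ngfr KO samples. Across the table, limma called 2844 of 8326 genes at an adjusted p-value under 0.05, or 34.2% (18.3% higher and 15.8% lower in Ngfr KO). The count test edgeR, run on the recovered reads, called 15.2% of 16751 genes (8.67% higher and 6.55% lower).

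The sorted samples carried FDC markers throughout. Cr2, a complement receptor gene that marks FDCs, ranged over 26.5 to 76.6 (WT) and 95.5 to 111 (Ngfr KO). Transcripts of other cell types were present too and moved with genotype. The summed value of 15 blood endothelial markers was 154 to 202 across WT samples and 35.4 to 66.9 across Ngfr KO samples. Limma called 13 of 13 tested markers lower. Of these, 5 passed the filter through the WT samples alone, where they are high, and the other 8 were all called lower. edgeR tested all 15 and called 13 lower and 0 higher. The 7 lymphatic endothelial markers found gave sums of 93.1 to 176 (WT) and 26.7 to 65.1 (Ngfr KO), with 5 of 7 called lower. Of these 7, 1 passed the filter through WT alone and was called, and of the other 6, 4 were called lower. The 16 FDC markers gave 1847 to 5163 (WT) and 8035 to 10549 (Ngfr KO), with 13 of 16 called higher. Cxcl13, Clu and Mfge8 weighed most in that sum, with means of 1983, 1122 and 292 (WT) and 3453, 2992 and 1453 (Ngfr KO). Of these, Cxcl13 had overlapping groups and was not called. The 9 reticular stroma markers gave 80.1 to 157 (WT) and 244 to 352 (Ngfr KO), with 4 of 8 tested called higher. Dcn weighed most in that sum, with means of 48.0 (WT) and 198 (Ngfr KO), followed by Ccl19 with 33.5 and 77.5. Col1a2, Col3a1, Lum and Pdpn of the same list were not called. The summed values of pericyte, B-cell, T-cell, myeloid, and mast cell and platelet markers overlapped between genotypes. Of 6 pericyte and smooth muscle markers tested, limma called 3 higher (Myh11, Des and Kcnj8) and 0 lower. Des had means of 2.57 (WT) and 8.11 (Ngfr KO). Limma called 1 of 6 tested B-cell markers higher, 0 of 7 T-cell markers, and 1 of 2 mast cell and platelet markers lower. Within the myeloid list single genes went both ways: Lyz2 ranged over 0.582 to 5.96 (WT) and 3.29 to 28.1 (Ngfr KO), and Cd14 had means of 1.57 (WT) and 7.31 (Ngfr KO), both called higher by limma. Mrc1 was called lower, and the macrophage gene Adgre1 stayed at or below 0.112 in all samples. Of the mast cell genes, Kit ranged over 0.160 to 0.550 (WT) and 0.316 to 0.543 (Ngfr KO). Mcpt4 ranged over 0 to 1.59 in WT, with a mean of 0.405, and was at 0 in all 3 Ngfr KO samples. The Mcpt4 groups thus overlapped, and neither limma nor edgeR tested the gene. In bulk samples, fewer cells of a type and less RNA per cell cannot be told apart.

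**Figure D1:**
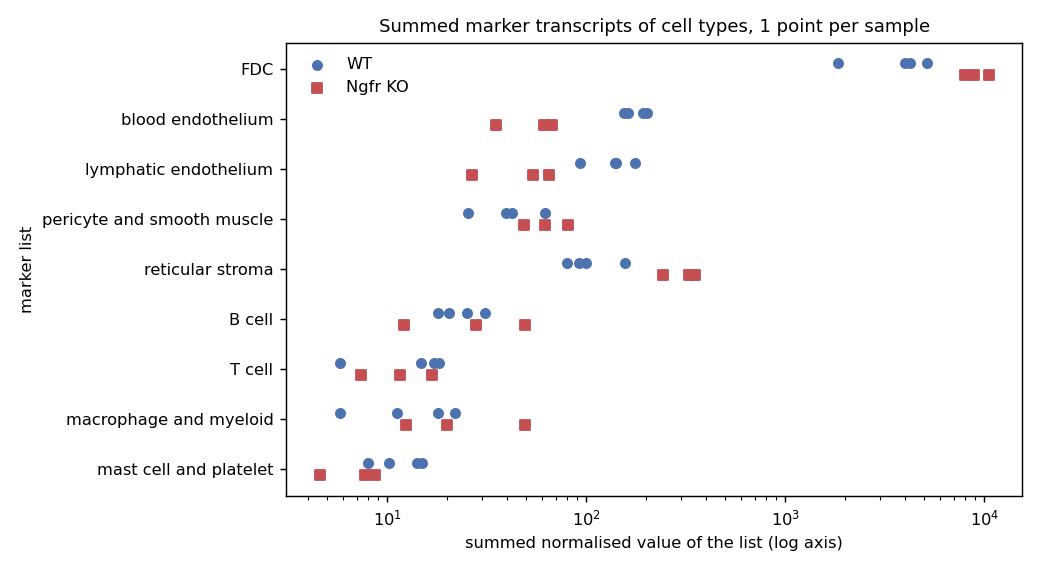
Summed normalised value of each marker list (x, log axis) for each cell type (y). Circles are the 4 WT samples and squares the 3 Ngfr KO samples. Endothelial sums lay lower and FDC and reticular stroma sums higher in every Ngfr KO sample.

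In these FDC samples the cyclooxygenase and synthase genes did not move as 1 block. Ptgs1 fell in Ngfr KO to a mean of 0.156, from 1.32 in WT, while Ptges, the inducible prostaglandin E synthase gene, rose 3.01-fold by the means, and Ptgds, a prostaglandin D synthase gene, rose 8.22-fold by edgeR. Ptgs2 had higher values in every Ngfr KO sample without being called by edgeR. Of the 9 genes, 5 passed the filter on low values (3 or more samples at 1 or above) and entered the limma test. Of these, 2 were called higher (Ptges, Ptgir) and 2 lower (Ptgs1, Ptger4), and Ptges3 was not called. Over all genes tested limma called 18.3% higher and 15.8% lower. Ptgs1 passed the filter through the WT samples alone, where it is high. All 9 entered the edgeR test, which called 2 higher (Ptges, Ptgds) and 1 lower (Ptgs1), against 8.67% and 6.55% of all genes tested. The median edgeR log2 change of the 9 genes was 1.13, and that of all genes tested was -0.02. WT and Ngfr KO values were apart in 5 of the 9 genes, 4 higher and 1 lower, a pattern found in 30.5% of the genes edgeR tested (15% higher and 15.5% lower). Of the 5 genes limma tested, Ptges (higher) and Ptgs1 (lower) were apart in this way, a pattern found in 40.9% of all genes limma tested (22.6% higher and 18.3% lower).

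**Figure D2:**
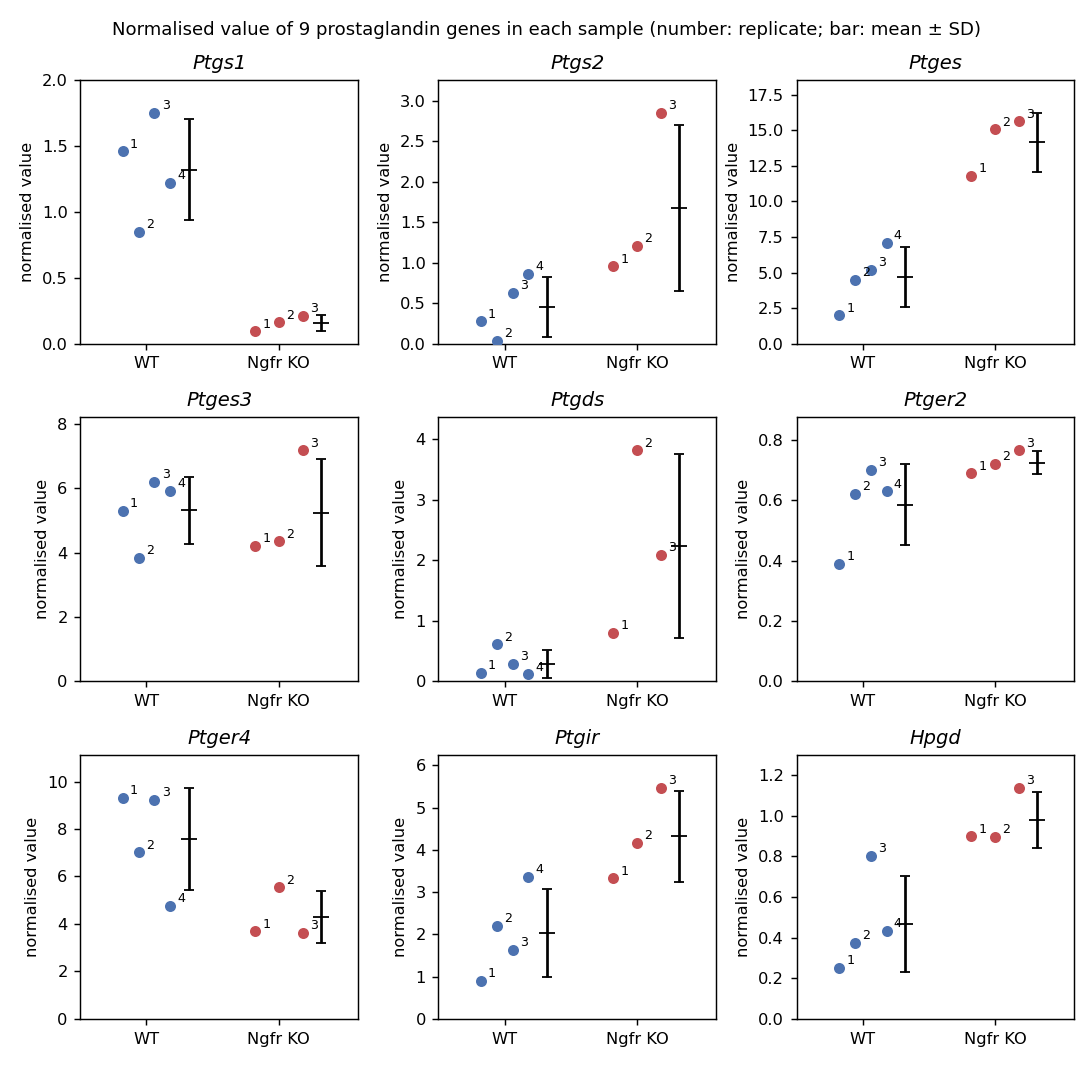
Normalised value (y) of each of the 9 genes in WT and Ngfr KO (x), 1 point per sample numbered by replicate, with the mean and SD beside each group. Ptgs1 lay lower in all Ngfr KO samples, Ptgs2, Ptges, Ptgds and Hpgd lay higher in all of them, and the other genes overlapped.

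The sequences just upstream of the RefSeq start of Ptgs1, Ptgs2, Ptges and Ptgds are shown because these 4 genes had the largest fold differences by edgeR. Each line gives the 250 bases before the RefSeq start (GRCm38.p6), read in the direction of the gene, from chr2:36230176-36230425 (plus strand), chr1:150099781-150100030 (plus), chr2:30903298-30903547 (minus) and chr2:25469750-25469999 (minus). Capitals mark matches to the motifs searched on both strands. The Ptges and Ptgds stretches lie inside the gene spans given below, which come from GENCODE and begin further upstream. Motif positions are counted from the RefSeq start alone.
Ptgs1: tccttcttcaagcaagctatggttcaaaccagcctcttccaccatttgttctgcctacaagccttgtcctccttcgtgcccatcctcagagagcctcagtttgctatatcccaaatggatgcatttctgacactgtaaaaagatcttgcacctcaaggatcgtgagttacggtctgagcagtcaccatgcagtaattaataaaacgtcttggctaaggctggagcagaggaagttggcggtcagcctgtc
Ptgs2: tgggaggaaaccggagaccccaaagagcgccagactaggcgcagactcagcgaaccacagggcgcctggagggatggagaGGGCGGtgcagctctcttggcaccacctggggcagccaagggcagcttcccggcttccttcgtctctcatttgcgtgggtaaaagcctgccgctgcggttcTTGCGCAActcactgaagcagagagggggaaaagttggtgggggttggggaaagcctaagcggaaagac
Ptges: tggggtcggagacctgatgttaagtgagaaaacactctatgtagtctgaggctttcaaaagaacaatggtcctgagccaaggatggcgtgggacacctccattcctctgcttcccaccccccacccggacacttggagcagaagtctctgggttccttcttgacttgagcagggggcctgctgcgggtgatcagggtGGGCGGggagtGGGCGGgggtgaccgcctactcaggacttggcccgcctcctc
Ptgds: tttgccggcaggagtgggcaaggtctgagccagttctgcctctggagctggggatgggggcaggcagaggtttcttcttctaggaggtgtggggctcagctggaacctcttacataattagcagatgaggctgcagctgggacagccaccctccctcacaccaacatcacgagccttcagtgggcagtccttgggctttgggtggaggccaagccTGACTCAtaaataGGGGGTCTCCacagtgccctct
The motifs were the full cyclic AMP response element TGACGTCA, its shorter core TGACG, the AP-1 site TGANTCA, the NF-kB site, the C/EBP site TTGCNNAA, the GC box GGGCGG, the E-box CACGTG and the TATA box TATAAA; the core lies within the full element. The Ptgs1 stretch held none of them, and its GC content was 48.0%, against 61.6% for Ptgs2, 59.6% for Ptges and 58.4% for Ptgds. The Ptgs2 stretch held a C/EBP match, TTGCGCAA, at 69 to 62 bases before the start, a motif in 9.56% of the 32851 promoter stretches of the same length, and a GC box at 170 to 165 bases. Ptges held 2 GC boxes, at 53 to 48 and 42 to 37 bases before the start. Ptgds held an AP-1 match at 35 to 29 bases and an NF-kB match at 22 to 13 bases, motifs in 6.75% and 3.90% of all stretches. GC boxes were found upstream of 6 of the 9 genes and in 32.7% of all stretches, and the full cyclic AMP response element upstream of none of the 9 and in 1.55% of all. These matches are letters in a sequence; no binding was measured.

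Cyclooxygenases. Ptgs1 (ENSMUSG00000047250, chromosome 2, 36230426 to 36252272, plus strand, GRCm38) had values of 1.46, 0.850, 1.75 and 1.22 in WT replicates 1 to 4 and 0.0943, 0.163 and 0.212 in Ngfr KO replicates 1 to 3. These came from 227 to 403 reads in WT libraries and 26 to 53 reads in the deeper Ngfr KO libraries. No Ngfr KO sample reached the lowest WT value, and the means were 1.32 ± 0.382 (SD, n = 4) and 0.156 ± 0.0592 (SD, n = 3). The limma log2 change on log2(value + 1) was -0.99 (SE 0.16, adjusted p = 0.00117), a scale on which the pseudocount shrinks the change of so low a gene. On the reads, the edgeR log2 change was -3.01 (SE 0.41, adjusted p = 0.00393). Ptgs1 passed the filter through the WT samples alone, and without WT replicate 1, 3 or 4 it did not enter the limma test; edgeR called it lower in all 7 fits that left out 1 sample.

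Ptgs1 is expressed by several cell types, so its value was set beside the markers. Of the 15 blood endothelial markers, 3 had a lower edgeR log2 change than Ptgs1. Per 1000 units of summed blood endothelial markers, Ptgs1 stood at 7.22, 5.26, 9.04 and 7.90 in WT and 1.54, 2.43 and 6.003 in Ngfr KO. Like all ratios to summed markers given here, this ratio was chosen after the values were seen. On it the groups overlapped, because Ngfr KO replicate 3 lay above WT replicate 2. The mean in Ngfr KO was 0.452 of that in WT. Against the FDC and the reticular stroma markers every Ngfr KO sample was lower, with ratios of the means of 0.0405 and 0.0400. The part of endothelial transcripts in the Ptgs1 difference was not tested beyond the endothelial ratio. Of the platelet genes listed, Itga2b had an edgeR log2 change of -1.16 (adjusted p = 0.0186), Pf4 of 0.24 (adjusted p = 0.770) and Gp1ba of 0.27 (adjusted p = 0.863).

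Ptgs2 (ENSMUSG00000032487, chromosome 1, 150100031 to 150108227, plus strand) had values of 0.276, 0.0337, 0.626 and 0.866 in WT and 0.958, 1.21 and 2.85 in Ngfr KO. WT replicate 2 held 9 Ptgs2 reads and Ngfr KO replicate 3 held 712. All Ngfr KO values exceeded all WT values, although the highest WT value was close to the lowest Ngfr KO value. Ptgs2 did not pass the value filter, and its edgeR log2 change was 1.94 (SE 0.75, adjusted p = 0.108). DESeq2 on the same reads gave 1.93 with an adjusted p of 0.0427, so that the call depends on the tool. Per 1000 units of summed FDC markers the groups overlapped, at 0.00843 to 0.168 (WT) and 0.119 to 0.270 (Ngfr KO), with a ratio of the means of 1.48 against 3.71 for the values themselves. Without WT replicate 2 the edgeR log2 change was 1.54 (adjusted p = 0.0928), and without Ngfr KO replicate 3 it was 1.35 (adjusted p = 0.334).

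Because the 2 enzymes catalyse the same step, their levels were compared per kilobase of exon (GENCODE M21, all exons of the gene merged). Ptgs2 made up 13.8%, 3.25%, 23.3% and 37.6% of the summed cyclooxygenase level in WT replicates 1 to 4, and 89.6%, 86.3% and 91.9% in Ngfr KO replicates 1 to 3. Ptgs1 was thus the more abundant transcript of the pair in all 4 WT samples and Ptgs2 in all 3 Ngfr KO samples. The summed level itself overlapped, at 0.226 to 0.588 per kilobase (WT) and 0.233 to 0.677 (Ngfr KO). The share is built from the values given above and was not tested separately.

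**Figure D3:**
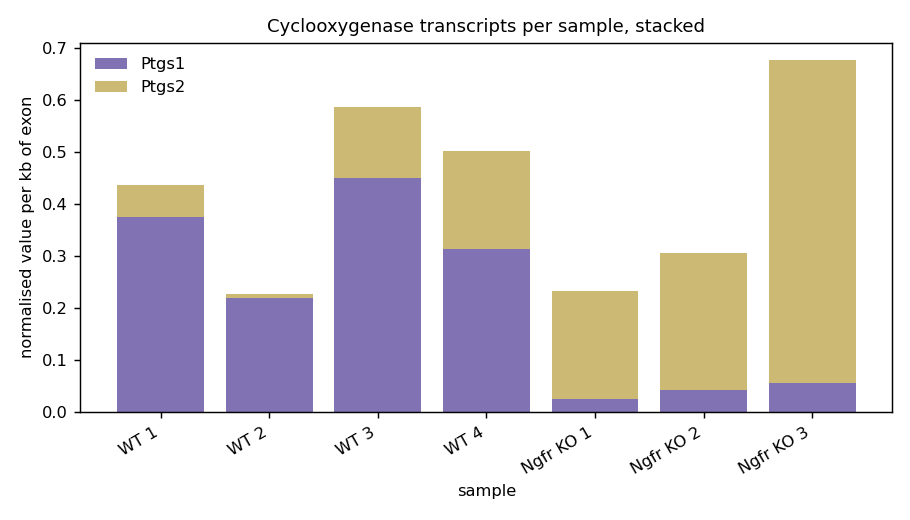
Normalised value per kilobase of exon (y, from 0) of Ptgs1 and Ptgs2, stacked, in each sample (x). Ptgs2 took 3.25% to 37.6% of the bar (WT) and 86.3% to 91.9% (Ngfr KO), while the heights of the bars overlapped.

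Synthases. Ptges (ENSMUSG00000050737, chromosome 2, 30889471 to 30929863, minus strand), which encodes the membrane enzyme that often works with COX-2 to make prostaglandin E2, rose in Ngfr KO by both tests. It had values of 2.01, 4.51, 5.21 and 7.09 in WT replicates 1 to 4 and 11.8, 15.1 and 15.6 in Ngfr KO replicates 1 to 3. All Ngfr KO samples lay above all WT samples, and WT replicate 1 was the lowest. The means were 4.71 ± 2.10 (SD, n = 4) and 14.2 ± 2.07 (SD, n = 3), with a limma log2 change of 1.49 (SE 0.28, adjusted p = 0.00230). The edgeR log2 change was 1.65 (SE 0.34, adjusted p = 0.0127), and without Ngfr KO replicate 2 its adjusted p was 0.0502. Per 1000 units of the summed FDC markers, Ptges stood at 1.09 to 1.37 (WT) and 1.47 to 1.70 (Ngfr KO), with every Ngfr KO sample higher and a ratio of the means of 1.28. Against the reticular stroma markers, where Dcn weighed most in the sum, the groups overlapped, at 25.1 to 52.2 and 33.5 to 61.8. The ratio of the means there was 1.11, and against the blood endothelial markers it was 10.4. Of the 16 FDC markers, 6 had a higher edgeR log2 change than Ptges.

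Ptgds (ENSMUSG00000015090, chromosome 2, 25466709 to 25470046, minus strand), the lipocalin-type prostaglandin D synthase gene, had values of 0.136, 0.610, 0.291 and 0.114 in WT and 0.798, 3.82 and 2.09 in Ngfr KO. The Ngfr KO values were all higher, but were spread from 220 to 1126 reads. It failed the value filter; in the reads it rose, with an edgeR log2 change of 3.04 (SE 0.64, adjusted p = 0.0135). Without Ngfr KO replicate 2, its highest sample, edgeR gave 2.35 with an adjusted p of 0.0701. Of the 16 FDC markers, 1 had a higher edgeR log2 change. Per 1000 units of summed FDC markers the groups overlapped, with a ratio of the means of 3.06.

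Ptges3 (ENSMUSG00000071072, chromosome 10, 128058954 to 128077272, plus strand) encodes p23, a cytosolic prostaglandin E synthase better known as a co-chaperone of HSP90. It had values of 5.29, 3.84, 6.20 and 5.91 in WT and 4.20, 4.36 and 7.18 in Ngfr KO. WT and Ngfr KO values overlapped, and the limma log2 change was -0.03 (SE 0.20, adjusted p = 0.920). Its sign turned with the processing, for example to 0.04 in edgeR. Per 1000 units of summed FDC or reticular stroma markers every Ngfr KO sample was lower, with ratios of the means of 0.351 and 0.332. Against the blood endothelial markers every Ngfr KO sample was higher, with a ratio of 3.74. The gene has a processed pseudogene, Ptges3-ps, with which the authors' counting could have shared reads.

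Receptors. Ptger4 (ENSMUSG00000039942, chromosome 15, 5206661 to 5244187, minus strand), the EP4 receptor gene, had values of 9.31, 7.01, 9.22 and 4.76 in WT and 3.69, 5.54 and 3.62 in Ngfr KO. The groups overlapped, since Ngfr KO replicate 2 lay above WT replicate 4. The limma log2 change was -0.68 (SE 0.22, adjusted p = 0.0335). The call is weak: edgeR gave -0.74 with an adjusted p of 0.0974, median ratio scaling gave a limma adjusted p of 0.0511, and no filter gave 0.104. Leaving out WT replicate 1, 2 or 3 or Ngfr KO replicate 1 or 3 gave limma adjusted p-values of 0.0854, 0.0612, 0.0730, 0.113 and 0.0925. Per 1000 units of summed FDC or reticular stroma markers every Ngfr KO sample was lower, with ratios of the means of 0.192 and 0.187. Against the blood endothelial markers every Ngfr KO sample was higher, with a ratio of 1.95. Part of Ptger4 lies across from Ttc33 on the other strand, and whether the counting used strand is not given in the sources used here.

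Ptgir (ENSMUSG00000043017, chromosome 7, 16906490 to 16910905, plus strand), the prostacyclin receptor gene, had values of 0.903, 2.20, 1.63 and 3.37 in WT and 3.32, 4.17 and 5.47 in Ngfr KO. WT replicate 4 lay just above Ngfr KO replicate 1, so the groups overlapped by 1 sample on each side. The limma log2 change was 0.86 (SE 0.25, adjusted p = 0.0207), and edgeR gave 1.15 (SE 0.37, adjusted p = 0.0619). Limma no longer called it without a filter (adjusted p = 0.0917), without Ngfr KO replicate 2 (0.0581) or without Ngfr KO replicate 3 (0.0781). Per 1000 units of summed FDC markers the groups overlapped, at 0.386 to 0.652 (WT) and 0.414 to 0.518 (Ngfr KO). Ptgir per kilobase exceeded Ptger4 in all 3 Ngfr KO samples, by 1.50 to 3.01 times, and in WT the ratio was 0.193 to 1.41.

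Ptger2 (ENSMUSG00000037759, chromosome 14, 44988195 to 45003820, plus strand), the EP2 receptor gene, had values of 0.389, 0.621, 0.700 and 0.629 in WT and 0.689, 0.719 and 0.765 in Ngfr KO. The groups overlapped at WT replicate 3. It was covered by 100 to 212 reads, did not pass the value filter, and had an edgeR log2 change of 0.38 (SE 0.32, adjusted p = 0.471). Set against the summed FDC or reticular stroma markers, every Ngfr KO sample was lower, with ratios of the means of 0.488 and 0.426. Against the blood endothelial markers every Ngfr KO sample was higher, with a ratio of 4.32. The predicted transcripts Gm17173 and Gm49364 lie on the opposite strand of the gene.

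Breakdown. Hpgd (ENSMUSG00000031613, chromosome 8, 56294585 to 56321043, plus strand), whose enzyme starts the inactivation of prostaglandins, had values of 0.253, 0.374, 0.804 and 0.435 in WT and 0.900, 0.895 and 1.14 in Ngfr KO. WT values were all lower, with WT replicate 3 close to the Ngfr KO samples. It did not pass the value filter, and its edgeR log2 change was 1.13 (SE 0.40, adjusted p = 0.0824). DESeq2 gave 1.12 with an adjusted p of 0.0497, and edgeR without WT replicate 3 gave 1.53 with an adjusted p of 0.0198. Per 1000 units of summed FDC markers the groups overlapped, with a ratio of the means of 0.847. The level of Ptges over Hpgd per kilobase overlapped between genotypes, at 2.77 to 6.98 (WT) and 5.62 to 7.21 (Ngfr KO).

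**Figure D4:**
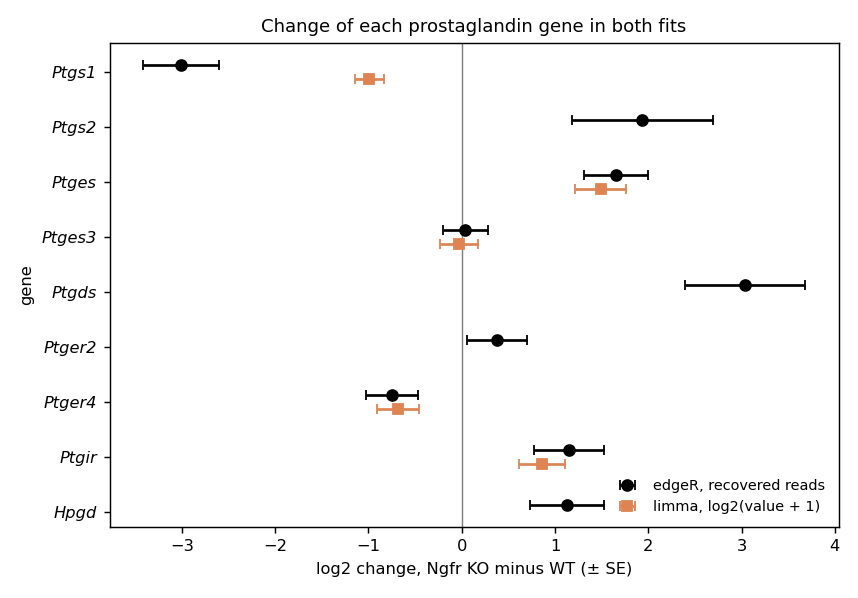
Log2 change from WT to Ngfr KO (x, with SE) of each gene (y) by edgeR on the recovered reads (circles) and by limma on log2(value + 1) for the 5 genes past the filter (squares). Ptgs1 and Ptgds had the changes of greatest size by edgeR, at -3.01 and 3.04, and Ptges3 lay at 0.04.

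Per kilobase of exon, the order of the levels in WT was Ptges3 (2.39 ± 0.475), Ptges (1.20 ± 0.534), Ptger4 (1.14 ± 0.324), Ptgir (0.608 ± 0.312), Ptgs1 (0.340 ± 0.0982), Hpgd (0.277 ± 0.141), Ptgds (0.175 ± 0.139), Ptger2 (0.113 ± 0.0260) and Ptgs2 (0.0983 ± 0.0804; all SD, n = 4). In all 8 pairs of neighbours in that order the samples' ranges overlapped. In Ngfr KO the order was Ptges (3.60 ± 0.526), Ptges3 (2.37 ± 0.756), Ptgds (1.36 ± 0.919), Ptgir (1.30 ± 0.324), Ptger4 (0.644 ± 0.164), Hpgd (0.581 ± 0.0822), Ptgs2 (0.365 ± 0.224), Ptger2 (0.139 ± 0.00733) and Ptgs1 (0.0403 ± 0.0152; all SD, n = 3). There, 5 of 8 neighbouring pairs overlapped, and Ptgir and Ptger4, Ptgs2 and Ptger2, and Ptger2 and Ptgs1 were apart. Ptgs1 thus stood at place 5 of the 9 genes in WT and last in Ngfr KO, and Ptgs2 stood last in WT.

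Among 8325 other genes past the filter, the 3 whose log2(value + 1) followed Ptges most closely over the 7 samples were Serpina1b (Pearson's r = 0.998), Aimp2 (0.996) and Adgrg2 (0.995). With 7 samples and large genotype differences in the table, such values can describe a shared step between the groups and were given no test. Aimp2 had a limma log2 change of 0.66 (adjusted p = 0.0142). That of Adgrg2 was 0.29 and was not called (limma adjusted p = 0.124). Serpina1b rose from 6.80 ± 2.91 (SD, n = 4) to 22.4 ± 3.20 (SD, n = 3); it belongs to a family of near-identical genes among which reads may be shared.

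The other genes of the pathway were taken from lists. Their counts stand beside a whole table in which limma called 18.3% of genes tested higher and 15.8% lower. The edgeR shares were 8.67% and 6.55%. Of 19 genes of arachidonate release, 16 were in the table and 8 passed the filter, of which limma called 4 higher and 1 lower in Ngfr KO. Pla2g4a, the cytosolic phospholipase that frees arachidonic acid, rose from 1.45 ± 0.496 (SD, n = 4) to 4.61 ± 0.966 (SD, n = 3), a limma log2 change of 1.20 (SE 0.19, adjusted p = 0.00125). Anxa1, whose product annexin A1 restrains phospholipase A2, rose by 1.07, and Lpcat3 and Acsl4, which handle arachidonate in membranes, rose by 0.53 and 0.50, with limma adjusted p-values of 0.0228, 0.0365 and 0.0295. Mgll, a monoacylglycerol lipase gene, fell by 0.83 (limma adjusted p = 0.0206). edgeR called Pla2g4a and Acsl4.

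Of 11 other synthase and reductase genes, 8 were tested and limma called 4, all higher, against 18.3% of all genes tested. Akr1b8 and Ptgr1 passed the filter through the Ngfr KO samples alone, where they are high; of the other 6 genes tested, 2 were called higher. Akr1b3, the aldose reductase gene whose product can also make prostaglandin F, rose from 4.31 ± 1.02 (SD, n = 4) to 9.89 ± 1.45 (SD, n = 3), a limma log2 change of 1.05 (SE 0.19, adjusted p = 0.00204). Akr1b8, a related reductase gene, rose by 0.89, and Ptgr1 and Ptgr2, which encode reductases of prostaglandin breakdown products, by 0.78 and 0.53, with limma adjusted p-values of 0.00169, 0.00204 and 0.0333. In the first 3 of these genes edgeR made the same call. Hpgds and Tbxas1, the synthase genes of blood cell types, had means of at most 0.139 in either group.

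Of 9 other receptor genes, 6 were in the table and 2 were tested. Pparg, a nuclear receptor gene of lipid ligands, fell by 0.64 (limma adjusted p = 0.0323; edgeR adjusted p = 0.158), and Ptgfrn was not called. Ptger1 and Ptgfr, the EP1 and FP receptor genes, had means of at most 0.0801. Of 4 transport genes, 3 were tested and none was called by limma; edgeR called none of 4.

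Of 26 genes of cyclic AMP signalling, the pathway that EP2, EP4 and IP feed, 16 were tested and limma called 8, all lower. Over all genes tested, limma called 15.8% lower. Of the 16, 3 (Nr4a2, Crtc2 and Crtc3) passed the filter through the WT samples alone, where they are high, and 2 of these were called; of the other 13, 6 were called lower and 0 higher. Gnas, which encodes the stimulatory G protein subunit, fell from 19.4 ± 5.65 (SD, n = 4) to 9.08 ± 1.33 (SD, n = 3), a limma log2 change of -0.98 (SE 0.22, adjusted p = 0.00657). Arrb1, which encodes a beta-arrestin, and the cyclic AMP-inducible nuclear receptor genes Nr4a1 and Nr4a2 fell by 1.02, 1.03 and 1.28, with limma adjusted p-values of 0.00135, 0.00645 and 0.00223. Crem and Pde4b, also cyclic AMP targets, had log2 changes of -0.20 and 0.05 and were not called. edgeR tested all 26 genes and called 8, all lower, with a median log2 change of -0.87. Over all genes tested, edgeR called 6.55% lower. Endothelial marker sums were lower in the same samples, as given above, and their part in these differences was not tested.

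**Figure D5:**
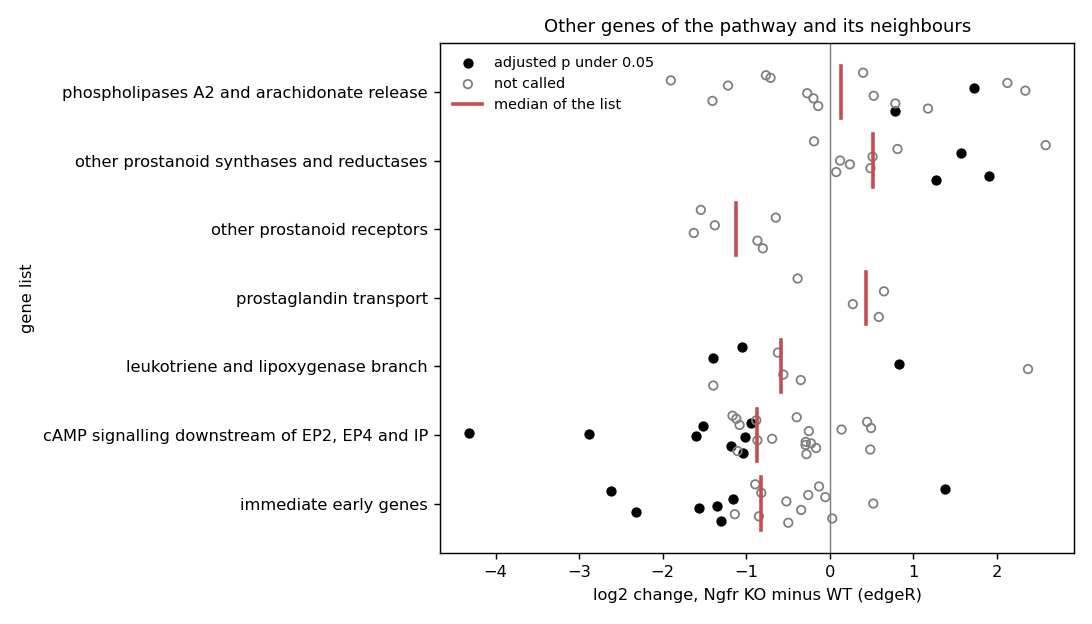
edgeR log2 change from WT to Ngfr KO (x) of the genes of each list (y). Filled points passed an adjusted p of 0.05, open points did not, and the line is the list's median. The synthase list's called genes lay above 0 and those of the cyclic AMP list below 0.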

How the data were processed

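RNA of 7 samples was amplified with SMART-Seq v4 and made into libraries with Nextera XT, per the labels' protocols. Demultiplexing used bcl2fastq 2.20.0.422 and the build was mm10, per the submitters' processing notes. The aligner, counter and annotation are not given in the sources used here. The deposited table gives a normalised signal for each gene and sample, named TMM (trimmed mean of M values). In each sample 100% of values were whole multiples of 1 step (within 0.01 of a whole read), which gave back the reads. Intervals of counting were not computed, since amplified reads are not independent molecules.

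The main test was limma 3.58.1 (R 4.3.3; lmFit, eBayes with trend) on log2(value + 1) for genes at 1 or above in 3 or more samples, with Benjamini-Hochberg adjustment over all genes tested. All log2 changes by limma are on that scale. Ngfr did not pass this filter and was added by name in a separate limma fit. Because a value below 1 can still hold many reads, edgeR 4.0.16 (quasi-likelihood, filterByExpr, its own TMM factors) was also run on the reads, with DESeq2 1.42.0 as its alternative; edgeR SEs are the log2 change divided by the root of the F statistic. Coordinates and exon lengths came from GENCODE M21 (GRCm38) by identifier, promoters from RefSeq GRCm38.p6 by symbol, where 9 of 9 genes matched. In simulated data with 200 genes changed 4-fold, limma recovered 93.5% (7.43% of its 202 calls false, 8215 genes). There edgeR recovered 96.0% (3.52% of 199 calls false, 16897 genes), and with none changed both called 0. The changed genes were drawn from those past the value filter, and all genes were given the same dispersion. The rates do not cover Ptgs2, Ptgds, Ptger2 and Hpgd, which failed that filter, nor a table with 2844 genes called.

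All listed genes are named with values; in other lists, up to 4 called genes with the largest limma change, and in marker lists some defining markers. Genes such as Acsl4, Crem, Pde4b, Ptgfrn, Hpgds, Tbxas1, Ptger1, Ptgfr, Itga2b, Pf4, Gp1ba, Cd14, Mrc1, Crtc2, Crtc3 and Egr3, and the immediate early genes beyond the 4 of largest change, were added after values were seen. The markers Cxcl13, Clu, Mfge8, Dcn, Ccl19, Col3a1, Lum, Pdpn, Des and Kcnj8 were also added then. The genes and lists were chosen with earlier results of these data known. The series' design text calls the pooled samples independent, and p-values measure the spread between them. Alternatives were other pseudocounts (0.1, 5), filters, scalings, eBayes settings, thinned reads, a replicate block and leaving out each sample. No sample was left out of the main fits.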

Additional observations from a re-analysis of the deposited data

Results flagged for a closer look

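The level of Ptges over Ptgs2 per kilobase of exon stood apart in WT replicate 2, at 156, against 8.48 to 9.70 in the other WT samples. The gap took 0.992 of the group's range. It follows from the 9 Ptgs2 reads of that library, where the other WT libraries held 71 to 227, while its Ptges value of 4.51 lay within the WT range. Of 15 such comparisons within WT this was the 1 that stood apart, where chance gives 0.75.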

How the results depend on the processing

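The number of genes called by limma (2844) was 535 with a value of at least 10 required, which left 1297 genes to test (67.1% of calls higher, against 53.7%), and 1614 to 3006 when 1 sample was left out; other settings kept it within 1.5 times. It was 1870 without WT replicate 1, 1803 without Ngfr KO replicate 1 and 1614 without Ngfr KO replicate 2. Of the prostaglandin genes, limma called 4; the stricter filter left 1 to test and called it (Ptges), and leaving out 1 sample gave 2 to 3 (2 without WT replicate 1 or 3 or Ngfr KO replicate 3). edgeR called 3 of 9, where it called 15.2% of all genes tested. DESeq2 called 6, the replicate block 5, and leaving out 1 sample gave 1 to 5 (5 without WT replicate 4, 1 without Ngfr KO replicate 2). For these alternatives to edgeR the share of all genes called was not worked out, so their counts cannot be set against the whole table. The cause of these shifts was not tested. Thinning all reads to 17244925 per library gave 2834 genes. Ptgs2 then entered the limma test and was called, but its deposited WT values were all below 1, so that its entry rests on the Ngfr KO samples where it is high.

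Ptges3 changed sign, with a limma log2 change of 0.0253 under median ratio scaling, 0.0191 with the replicate block and 0.0393 in edgeR, -0.241 to 0.0854 in limma and -0.215 to 0.173 in edgeR with 1 sample left out. Ptges was called in all 17 alternatives and Ptgs1 in all 13 that tested it, 1 of which in each case was edgeR and the rest limma. Ngfr kept its direction in all 17, with limma or edgeR adjusted p-values of 0.0154 to 0.477, under 0.05 in 4. With the replicate number as a block, where WT replicate 4 has no partner and drops out of the estimate, limma called 2717 genes; Ptgs2 (edgeR log2 change 2.89, adjusted p = 0.0369) and Ptgir (1.59, adjusted p = 0.0175) were called. The samples share a number and no stated pairing: deviations of same-numbered samples correlated at 0.298, -0.0593 and -0.0108, and not every sample correlated best with its own number.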

Other observations

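The leukotriene branch, the other main fate of arachidonic acid, had 3 genes past the filter, and limma called all 3. Over the whole table limma called 34.2% of genes tested. Ltc4s, the leukotriene C4 synthase gene, had a WT mean of 10.5 ± 2.74 (SD, n = 4) and fell to 3.79 ± 0.545 (SD, n = 3), a limma log2 change of -1.23 (SE 0.20, adjusted p = 0.00130). Mgst3, a microsomal glutathione transferase gene, fell by 0.82 (limma adjusted p = 0.00319), and Lta4h, whose enzyme makes leukotriene B4, rose by 0.57 (limma adjusted p = 0.0315). Alox5ap, the 5-lipoxygenase activating protein gene, had means of 0.395 and 0.300 and was not called by edgeR (adjusted p = 0.788).

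Ptgs2 is itself an immediate early gene, and 19 other such genes were listed. Of 18 tested, limma called 8 lower and 1 higher, against 15.8% and 18.3% of all genes tested. Egr3, 1 of the 8 lower, passed the filter through WT alone. Klf4, Fosb and Btg2 fell by 2.37, 1.55 and 1.30, with limma adjusted p-values of 1.16e-04, 9.70e-04 and 0.00496, and Klf6 rose by 1.22 (limma adjusted p = 0.00784). Fos, Jun and Dusp1 had overlapping groups and were not called, with limma adjusted p-values of 0.352, 0.863 and 0.864. The list's summed value overlapped between genotypes.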
